A study of Mus musculus with 8 samples.

Results

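Across the 8 granulosa cell libraries of a mouse study of the progesterone receptor isoform PGR-A, the largest axis of variation placed libraries of both genotypes on both of its sides. On the first principal component (PC1) of log2(TPM + 1), 1 side of 0 held WT replicate 1 with PGR-A KO replicates 1, 2 and 4, and the other side held WT replicates 2, 3 and 4 with PGR-A KO replicate 3. These are called the high-side and low-side libraries here, 4 of 8 each. The split was chosen from the expression values themselves, so levels on its sides are given as a description, library by library, with no test between the sides. A gene is said to follow the order where its high-side values and its low-side values do not overlap. It was examined in 14472 of the 51886 gene symbols of the table, those with 1 TPM or more in 4 or more libraries.

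The study compared mice of the PGR-A KO strain, knockout (PGR-A KO, 4 libraries) against wild type (WT, 4 libraries). All mice were 21 to 27 days old and were given 5 IU of eCG, a gonadotropin that drives follicle growth, and 46 h later 5 IU of hCG, which acts through the luteinising hormone receptor. Granulosa cells were collected 8 h after hCG, and each library pools the cells of 2 to 3 mice. The labels do not record litters, days or batches, so p-values measure the spread between these pools.

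After the luteinising hormone surge, mural granulosa cells of the preovulatory follicle make EGF-like factors that act on neighbouring cells, prostaglandins, the progesterone receptor, and the hyaluronan-binding proteins that let the cumulus around the oocyte expand. The receptor in turn is needed for proteases and other factors of follicle rupture. In the same hours the cells stop dividing, lower many genes of the growing follicle and turn to taking up and making cholesterol for progesterone synthesis, which continues in the corpus luteum. Granulosa cells within and between follicles pass through these steps over several hours.

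The libraries were alike in bulk, with correlations of log2(TPM + 1) across the 14472 genes between 0.970 and 0.991 and no identical pair. Because TPM does not carry depth, the reads behind each value are unknown and counting intervals could not be computed. The number of genes at 1 TPM or more was 14099 to 14812 per library. All 10 granulosa markers examined passed the filter, and Inha, the inhibin alpha subunit, stood at 3276 to 4143 TPM in the high-side and 2994 to 4645 TPM in the low-side libraries. Pgr was at 3.21, 3.52, 3.08 and 1.56 TPM in the high-side libraries, listed here and below in the order PGR-A KO replicates 1, 2 and 4, then WT replicate 1. In the low-side libraries it was at 2.01, 0.878, 1.41 and 0.756 TPM, listed in the order PGR-A KO replicate 3, then WT replicates 2, 3 and 4. By label, all 4 PGR-A KO libraries lay above all 4 WT libraries, the crossing PGR-A KO replicate 3 and WT replicate 1 included. The means were 2.96 ± 0.658 TPM against 1.15 ± 0.395 TPM (SD, n = 4 each), a limma log2 difference of 0.88 (SE 0.18) with an unadjusted p of 0.000708 and an adjusted p of 0.445. These gene-level values do not separate the PGR-A and PGR-B transcripts.

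PC1 held 34.9% of the variance. Its scores were 20.7, 10.6 and 16.4 in replicates 1, 2 and 4 of PGR-A KO and 21.2 in WT replicate 1. They were -25.8 in PGR-A KO replicate 3, then -3.55, -20.9 and -18.5 in WT replicates 2, 3 and 4. The libraries nearest to the dividing line at 0 were PGR-A KO replicate 2 at 10.6 and WT replicate 2 at -3.55. WT replicate 2 also stood apart on PC2 (20.5% of the variance), at -35.0 against -1.50 to 14.5 in the other 7 libraries. By genotype, which the split did not use, the PC1 score was 5.46 ± 21.2 in PGR-A KO and -5.46 ± 19.3 in WT (SD, n = 4 each). This difference was within the spread between replicates (two-sided exact permutation test over 70 assignments, p = 0.486, the smallest possible p being 0.0286). The plot of the first 2 components shows both genotypes on both sides.

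**Figure D1:**
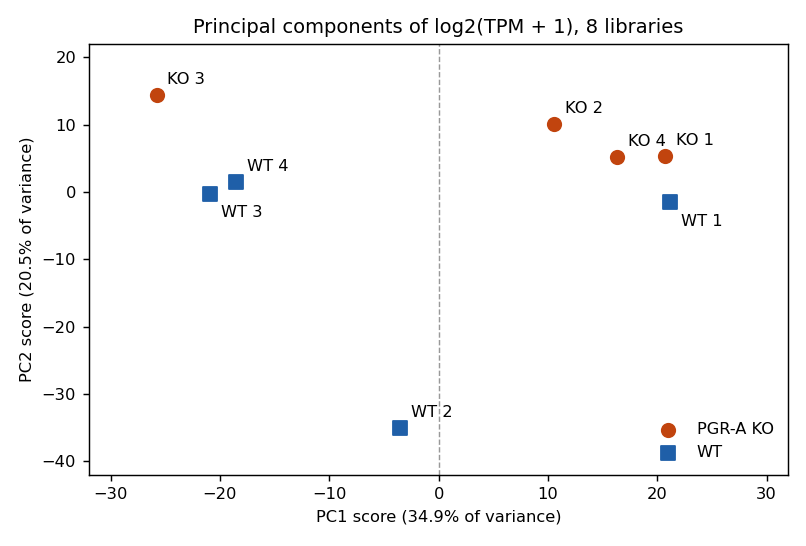
Scores of the 8 libraries on PC1 (x axis) and PC2 (y axis) of log2(TPM + 1), circles for PGR-A KO and squares for WT, with a dashed line at a PC1 score of 0. WT replicate 1 lies among PGR-A KO replicates 1, 2 and 4 on the right, PGR-A KO replicate 3 lies at the far left, and WT replicate 2 lies near the line and low on PC2.

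Of the 14472 genes, 3332 (23.0%) followed the order. Of these, 1818 genes (12.6% of the genes tested) were higher in all 4 high-side libraries and 1514 (10.5%) were lower in all 4. Since PC1 chose the sides, these shares are the background against which each gene group below is read. Most gaps were small: the distance on the log2(TPM + 1) scale between the nearest libraries of the sides had a median of 0.0946 for the higher and 0.0960 for the lower genes. A gap of 0.5 or more was present in 73 higher genes (0.504%) and 31 lower genes (0.214%). In 944 of the followers (28.3%) the gap between the sides was the largest of the 7 steps between ranked libraries, so for the others a step within a side was larger. Only 22 genes reached 1 TPM in each of the high-side libraries and in no other, and 34 did so on the low side.

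The study's own contrast called few genes. In limma over all 14472 genes, 2 genes (0.0138%) passed a Benjamini-Hochberg adjusted p of 0.05 between PGR-A KO and WT, Lyve1 and the predicted gene Gm13597, both lower in PGR-A KO, and 913 genes (6.31%) had an unadjusted p under 0.05. The genotypes' values did not overlap in 495 genes (3.42%). Both called genes separate the labelled genotypes, so by definition neither can follow the order. In every knockout library Gm13597 had a listed value of 0, against 6.32 to 18.9 TPM in the wild-type ones. Lyve1, a hyaluronan receptor of lymphatic vessels and some macrophages, was at 23.3, 19.6, 18.8 and 267 TPM in the high-side libraries and 35.6, 161, 155 and 127 TPM in the low-side libraries. Among the 3332 followers none passed, the lowest limma adjusted p being 0.64. The split itself bears on this: every follower has libraries of each genotype on both sides, so its genotypes overlap by definition. An unadjusted p under 0.05 was found in 251 of the followers (7.53%), 53 of them higher in the high-side libraries and in PGR-A KO and 198 lower in both. Most PGR-A KO libraries are on the high side, so the split favours this shared direction.

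The 6 genes that mark the order are known targets of the progesterone receptor or are raised with it in granulosa cells. Adamts1 (mm10, as for all gene positions here, chromosome 16, 85793827 to 85803113, minus strand) encodes a protease that cleaves versican in the expanding cumulus and follicle wall, and was at 574, 458, 500.2 and 543 TPM in the high-side libraries and 223, 366, 253 and 239 TPM in the low-side libraries. WT replicate 2 lay between the other 3 low-side libraries and the high side, with a gap of 0.32 to the nearest high-side library. Cxcr4 (chromosome 1, 128588199 to 128592293, minus strand), the receptor of the chemokine CXCL12, was at 465, 427, 383 and 539 TPM in the high-side libraries and 217, 271, 254 and 260.1 TPM in the low-side libraries. The highest Cxcr4 level of all was that of WT replicate 1 and the lowest that of PGR-A KO replicate 3, although the other WT libraries were on the low side and the other PGR-A KO libraries on the high side. Zbtb16 (chromosome 9, 48654297 to 48836222, minus strand), a zinc finger repressor induced by progesterone and glucocorticoids, was at 31.3, 28.1, 30 and 31.9 TPM in the high-side libraries and 15.4, 18.6, 16.3 and 17 TPM in the low-side libraries. The values within each side lay close together and the TPM of the nearest libraries of the sides differed 1.51-fold.

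Fkbp5 (chromosome 17, 28399094 to 28517527, minus strand), a co-chaperone of steroid receptors that progesterone and glucocorticoids raise, was at 438, 418, 418 and 407 TPM in the high-side libraries and 280.4, 297, 284 and 299.7 TPM in the low-side libraries. Prkg2 (chromosome 5, 98929773 to 99037351, minus strand), a membrane-bound cGMP-dependent kinase, was at 138, 119.5, 145 and 154 TPM in the high-side libraries and 62.4, 96.2, 60.7 and 78.6 TPM in the low-side libraries. Both genes had all 4 high-side libraries above all 4 low-side ones, and for Prkg2 WT replicate 2 was again the highest of its side. Snap25 (chromosome 2, 136713453 to 136782428, plus strand), a SNARE protein of regulated secretion, was at 54, 38, 50.2 and 53.7 TPM in the high-side libraries and 23.2, 36.4, 22.9 and 24.7 TPM in the low-side libraries. Its gap of 0.06 was held open by PGR-A KO replicate 2 and WT replicate 2 alone, and the sides overlapped after TMM scaling (gap -0.047) and quantile normalization (gap -0.008).

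In the genotype contrast these markers did not pass. Adamts1 averaged 439 ± 152 TPM (SD, n = 4) over the knockout libraries and 350.1 ± 140.4 TPM (SD, n = 4) over the wild-type ones, a limma log2 difference of 0.32 (SE 0.34) with an adjusted p of 0.907. For Cxcr4 the knockout mean was 373 ± 109 TPM (SD, n = 4) and the wild-type mean 331 ± 139 TPM (SD, n = 4), with a limma log2 difference of 0.19 (SE 0.30) and an adjusted p of 0.94. Fkbp5 gave a limma log2 difference of 0.26 (SE 0.16) and an adjusted p of 0.824. In each, 3 PGR-A KO libraries were high and 1 was low, while 1 WT library was high and 3 were low.

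The gene with the widest gap higher on the high side was Lepr (chromosome 4, 101717404 to 101815352, plus strand), the leptin receptor. It was at 65.7, 66.5, 69.2 and 66 TPM in the high-side libraries and 31.2, 31.5, 34 and 32.7 TPM in the low-side libraries. The values formed 2 tight sets, with the nearest libraries 1.93-fold apart and no library between. Lepr averaged 58.1 ± 18 TPM (SD, n = 4) over the knockout and 41 ± 16.7 TPM (SD, n = 4) over the wild-type libraries, with a limma log2 difference of 0.50 (SE 0.30) and an adjusted p of 0.819. Behind it came Ptx3 (chromosome 3, 66219910 to 66225805, plus strand), pentraxin 3, which crosslinks the hyaluronan of the expanded cumulus, at 167, 117, 91.7 and 110.1 TPM in the high-side libraries and 46.7, 50.6, 46.6 and 43.6 TPM in the low-side libraries. The low-side libraries lay within a narrow band for Ptx3, while the high side ranged up to PGR-A KO replicate 1. Ereg (chromosome 5, 91074622 to 91093646, plus strand), the EGF-like factor epiregulin, was at 38.7, 32.7, 32.5 and 29.7 TPM in the high-side libraries and 14.6, 16.5, 14.5 and 10.2 TPM in the low-side libraries, with a gap of 0.81.

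Spp1, the secreted phosphoprotein osteopontin, was at 740.1, 669, 611 and 644 TPM in the high-side libraries and 269, 368, 249 and 305 TPM in the low-side libraries. Nts, the precursor of the peptide neurotensin, was at 679.9, 589, 672 and 664 TPM in the high-side libraries and 363, 325, 233 and 314 TPM in the low-side libraries. Both secreted products were among the abundant genes with wide gaps, 0.73 for Spp1 and 0.70 for Nts. For Npr1, the receptor guanylyl cyclase for atrial natriuretic peptide, the levels were 49.8, 53.7, 43.8 and 44 TPM in the high-side libraries and 22.8, 24.3, 25.3 and 22.4 TPM in the low-side libraries. Gnao1, a G protein alpha subunit, was at 44.4, 51, 44.4 and 47.8 TPM in the high-side libraries and 19.5, 23, 20.4 and 25.3 TPM in the low-side libraries. Neither gene had a library between the sides.

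The other genes among the 12 widest higher gaps have varied roles. Sfrp2, a secreted modulator of WNT signalling, spanned 14.4 to 19.9 TPM in the high-side and 6.92 to 7.81 TPM in the low-side libraries. Bves, a cAMP-binding membrane protein, spanned 33.3 to 39.3 TPM in the high-side and 17.8 to 18.8 TPM in the low-side libraries. Rragd, a Rag GTPase of amino acid sensing, spanned 47.4 to 53.9 TPM in the high-side and 24.6 to 28.9 TPM in the low-side libraries. In these 3 genes the nearest libraries of the sides differed 1.84-fold, 1.77-fold and 1.64-fold. Tagln2, an actin-binding protein, spanned 382 to 447 TPM in the high-side and 207 to 237 TPM in the low-side libraries, and the F-box protein gene Fbxl22 spanned 28.2 to 39 TPM in the high-side and 14.8 to 16.5 TPM in the low-side libraries.

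The genes lower on the high side had gaps of 0.59 to 0.82 among the 12 widest. Bmp2 (chromosome 2, 133552159 to 133562885, plus strand), a ligand of the BMP family, was at 8.64, 7, 12 and 10.9 TPM in the high-side libraries and 21.9, 24.9, 24.6 and 22 TPM in the low-side libraries. Akr1c14 (chromosome 13, 4049011 to 4090688, plus strand), an aldo-keto reductase that acts on 3-ketosteroids, was at 114, 116, 144 and 109 TPM in the high-side libraries and 237, 472, 252 and 239.5 TPM in the low-side libraries. For Bmp2 the low-side libraries were tight and the high-side ones spread, whereas for Akr1c14 WT replicate 2 stood far above the rest of its side. Prss23, a serine protease, was at 145, 182, 182 and 206 TPM in the high-side libraries and 331, 401, 462 and 359 TPM in the low-side libraries. Rarres2, the precursor of the adipokine chemerin, was at 41.3, 42.4, 44.3 and 43.8 TPM in the high-side libraries and 70.4, 72.6, 110.4 and 94.3 TPM in the low-side libraries. WT replicates 3 and 4 held the highest Rarres2 levels, and the high-side libraries differed from each other by little.

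Itih5, an inter-alpha-trypsin inhibitor heavy chain, spanned 17 to 21.4 TPM in the high-side and 35.5 to 50.2 TPM in the low-side libraries. Omd, the small proteoglycan osteomodulin, spanned 16.6 to 26.1 TPM in the high-side and 41.7 to 47.3 TPM in the low-side libraries. In both, as in Tdrd5, a tudor domain gene best known from the germ line, at 23.8 to 30.02 TPM in the high-side and 47.8 to 56.2 TPM in the low-side libraries, the nearest libraries of the sides were 1.66-fold, 1.60-fold and 1.59-fold apart. The remaining members of the 12 widest lower gaps (Lratd2, Limch1, Asb4, Ypel1 and Zfp385b) had gaps of 0.59 to 0.67. The plot by library of the 6 markers and of the widest gaps shows the sides gene by gene.

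**Figure D2:**
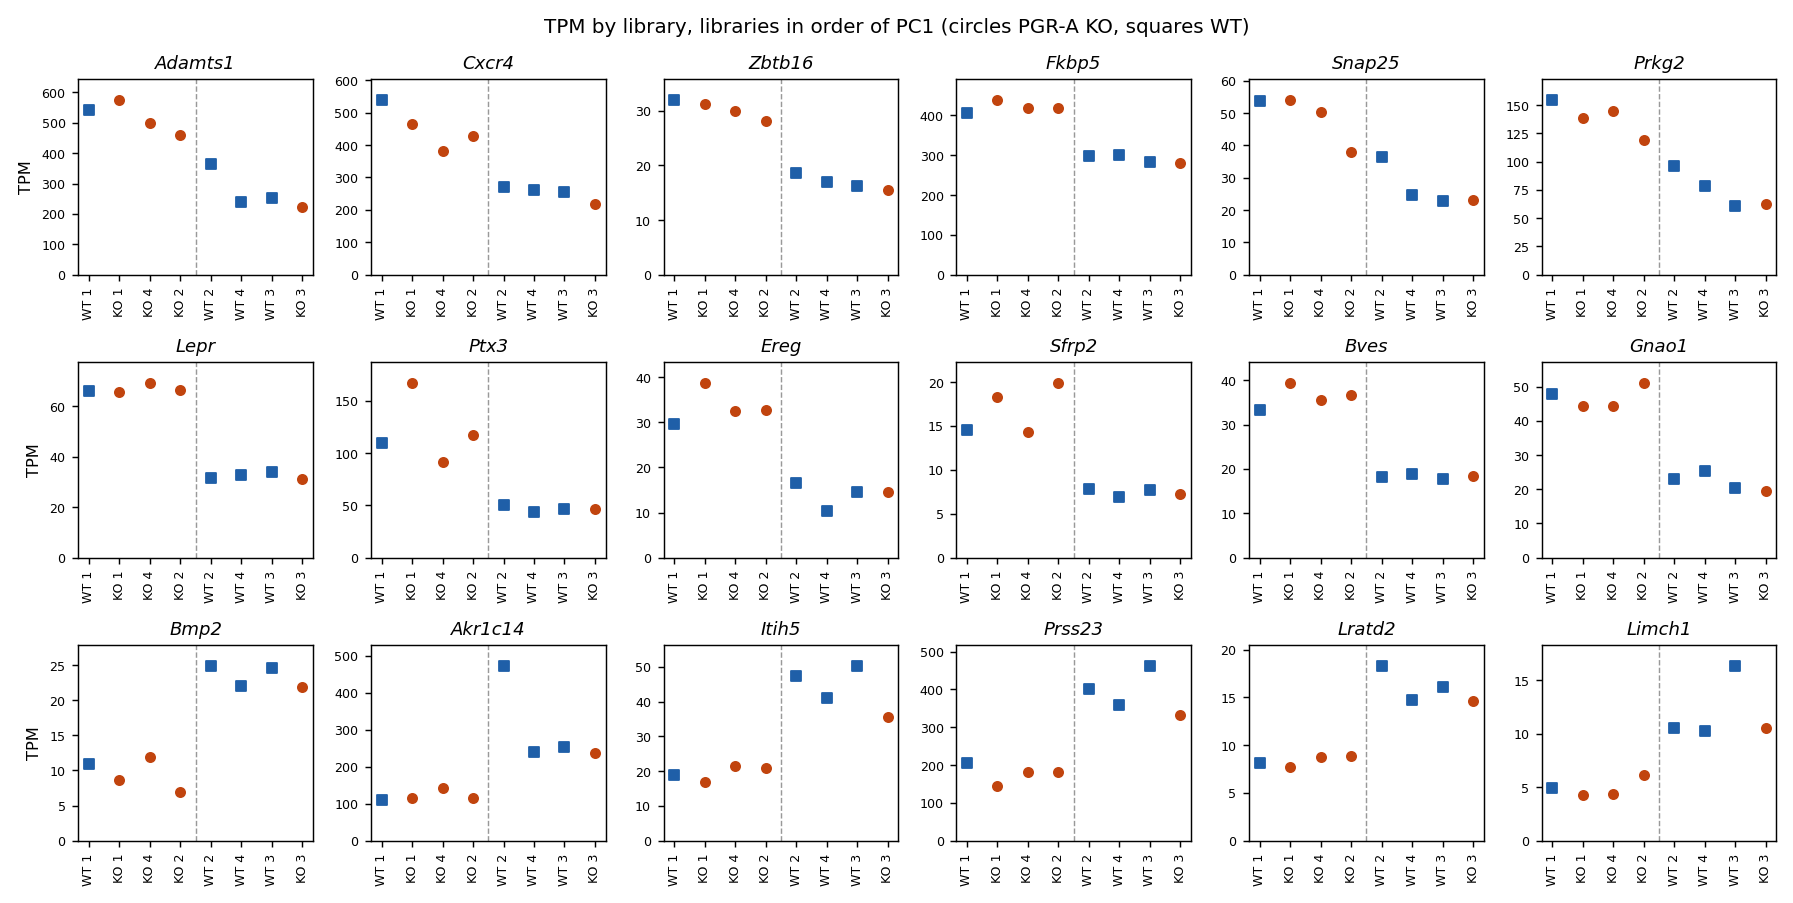
TPM (y axis, from 0) in each library (x axis, in order of PC1, dashed line between the sides) for the 6 marker genes, the 6 widest higher gaps and the 6 widest lower gaps, circles for PGR-A KO and squares for WT. Lepr falls into 2 flat sets of 65.7 to 69.2 and 31.2 to 34 TPM, whereas Adamts1, Prkg2 and Snap25 step down with WT replicate 2 between the sides.

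The promoters of 4 genes with wide gaps are shown because their products are secreted or on the cell surface and the sides did not overlap in any of them. Each is the 250 bases before the start of transcription, from RefSeq on GRCm38.p6, written 5′ to 3′ on the strand of the gene. Capitals mark matches, on either strand, to 6 motifs of factors known in granulosa cells: the cAMP response element TGACGTCA, the AP-1 site TGANTCA, the RUNX site TGTGGT, the C/EBP site TTNNGNAA, the steroid receptor core TGTTCT and the SF1 site CAAGGTCA. A table of promoters held an entry for 119 of the 160 named genes. For Spp1 the first of its 2 starts is shown.
Cxcr4: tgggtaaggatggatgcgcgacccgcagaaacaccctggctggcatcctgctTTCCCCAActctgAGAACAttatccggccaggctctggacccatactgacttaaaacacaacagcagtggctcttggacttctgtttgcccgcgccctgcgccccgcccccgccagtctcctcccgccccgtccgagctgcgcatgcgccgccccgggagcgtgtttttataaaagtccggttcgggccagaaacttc
Ptx3: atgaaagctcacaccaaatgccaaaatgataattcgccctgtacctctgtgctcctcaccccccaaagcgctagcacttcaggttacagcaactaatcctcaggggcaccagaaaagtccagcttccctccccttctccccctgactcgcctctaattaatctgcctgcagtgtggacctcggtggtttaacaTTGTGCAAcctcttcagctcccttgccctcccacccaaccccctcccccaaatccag
Spp1: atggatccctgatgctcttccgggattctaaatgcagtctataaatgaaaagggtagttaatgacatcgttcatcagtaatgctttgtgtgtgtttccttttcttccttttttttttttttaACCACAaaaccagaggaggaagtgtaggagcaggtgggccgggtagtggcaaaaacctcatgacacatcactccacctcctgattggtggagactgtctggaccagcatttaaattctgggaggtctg
Nts: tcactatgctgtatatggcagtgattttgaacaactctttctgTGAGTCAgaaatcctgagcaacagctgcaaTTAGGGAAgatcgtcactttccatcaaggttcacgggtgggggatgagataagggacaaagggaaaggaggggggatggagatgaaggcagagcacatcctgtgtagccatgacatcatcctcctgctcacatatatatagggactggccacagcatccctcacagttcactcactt
The Cxcr4 promoter (chr1:128592300-128592549, minus strand) held a C/EBP match 198 bases and a steroid receptor core 185 bases before the start. The Ptx3 promoter (chr3:66219637-66219886, plus strand) held a C/EBP match 57 bases before it, that of Spp1 (chr5:104434861-104435110, plus strand) a RUNX match at 128 bases, and that of Nts (chr10:102490419-102490668, minus strand) an AP-1 match at 207 and a C/EBP match at 177 bases. None of the motifs overlapped another in these 4. Such matches are common: the C/EBP letters were in 36.8% of all 32851 promoters of the table, the steroid receptor core in 16.1%, the RUNX letters in 14.0%, the AP-1 letters in 6.75%, the cAMP response element in 1.55% and the SF1 letters in 1.33%.

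Motif shares among all followers were within 4 percentage points of those among all genes tested. The cAMP response element was in 3.02% of the 1857 promoters of higher followers, 2.48% of the 1412 promoters of lower followers and 2.45% of the 13654 promoters of all genes tested. AP-1 letters were in 5.06%, 4.67% and 4.56% of the same sets, and RUNX letters in 9.69%, 10.3% and 10.5%. C/EBP letters were in 27.2%, 32.2% and 28.4%, the steroid receptor core in 9.80%, 12.5% and 11.1%, and SF1 letters in 0.915%, 0.637% and 0.959%. The promoters of genes with a gap of 0.5 or more lay farther off, except for RUNX letters in those of higher genes. They were 74 promoters of 58 higher genes and 38 promoters of 22 lower genes, so a gene can count more than once. C/EBP letters were in 33.8% and 44.7% of these, the steroid receptor core in 4.05% and 5.26%, AP-1 letters in 6.76% and 10.5%, and RUNX letters in 10.8% and 13.2%. Apart from C/EBP the counts were small, so single promoters move the shares. The steroid receptor core was in 3 and 2 promoters, AP-1 letters in 5 and 4, and RUNX letters in 8 and 5. The cAMP response element was in 1 and 0 promoters and SF1 letters in 0 and 0. These are counts of letters and say nothing of binding.

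Gene lists were read by how many tested members followed the order, beside the 12.6% higher and 10.5% lower over all genes, and by the median correlation of members with PC1, which was -0.0665 over all genes. With a library left out, fewer values can overlap and the counts over all genes rose too. Without WT replicate 2, 2564 of 14321 genes were higher and 2435 lower. List counts with a library left out are therefore not comparable with the shares of the main setting. A list of 25 genes that depend on the progesterone receptor in granulosa cells had 18 members higher and 0 lower, and a median correlation of 0.925. It holds the 6 markers, so it is not independent of the choice of the order. Members higher beyond the markers included the ligands Il6, Areg and Ereg, the protease Ctsl, the transcription factors Runx1, Runx2 and Hif1a, and Adcyap1, the gene of the peptide PACAP, beside Abcb1b, Rgcc and Zfand5. Sult1e1, which inactivates oestrogens by sulphation, had the widest gap of the list after Ereg, at 615, 518, 583 and 492 TPM in the high-side libraries and 319, 292, 214 and 252 TPM in the low-side libraries. Every high-side library was above every low-side one by 1.54-fold or more. The sides overlapped in Edn2, Pparg, Epas1, Cited2, Klf15, Apoa1 and Mt2. With TMM scaling 13 members were higher and with quantile normalization 15.

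In the list of genes for EGF-like ligands, prostaglandins and the cumulus matrix, 11 of 19 tested members were higher and 2 lower, with a median correlation of 0.812. The ligands Areg, Ereg and Btc were higher together, and Btc, betacellulin, was at 70.5, 64.4, 56.2 and 44.2 TPM in the high-side libraries and 27.8, 21.3, 20.8 and 20.2 TPM in the low-side libraries. Also higher were Ptgs2, the inducible cyclooxygenase, Slco2a1, which carries prostaglandins into cells, and the matrix genes Has2, Tnfaip6, Ptx3, Vcan and Cd44, which make, crosslink or bind hyaluronan. The receptors Egfr, Ptger2 and Ptger4 and the sheddase Adam17 overlapped. Hpgd, which breaks prostaglandins down, went the other way, at 49, 50.2, 64.9 and 48.2 TPM in the high-side libraries and 111, 95.9, 96.7 and 80.01 TPM in the low-side libraries. Itih2, a heavy chain that is transferred to hyaluronan, was also lower on the high side, at 10.1, 10.8, 11.6 and 12.1 TPM in the high-side libraries and 18, 13.8, 21.6 and 16.6 TPM in the low-side libraries. In bulk RNA of this kind fewer cells in a state and less RNA per cell cannot be told apart.

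Among 21 tested proteases and inhibitors of follicle rupture, 9 were higher and 3 lower. The marker Adamts1 is itself such a protease, so this group is not independent of the choice of the order. Mmp19, a matrix metalloproteinase, was at 28.6, 27, 26.4 and 25.2 TPM in the high-side libraries and 12, 16.1, 11.9 and 13.3 TPM in the low-side libraries. Timp1, an inhibitor of such proteinases, was at 543, 475, 431 and 403 TPM in the high-side libraries and 222, 271, 199 and 251 TPM in the low-side libraries. Both protease and inhibitor genes were thus on the high side, and Adamts4, a further versican-cleaving enzyme, spanned 13.4 to 15.9 TPM in the high-side and 5.84 to 9.53 TPM in the low-side libraries. The lower members had narrow gaps. Mmp11 was at 132 to 173 TPM in the high-side and 177 to 263 TPM in the low-side libraries, and for Adamts5 and Ctsh, with gaps of 0.05 and 0.03, the sides overlapped after TMM scaling and after quantile normalization. The plasminogen activators Plat and Plau overlapped, as did Mmp2, Timp2 and Timp3.

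Genes that answer glucocorticoids and other 3-ketosteroids had 9 of 17 tested members higher and 1 lower, with a median correlation of 0.844. Per1, a clock gene with a glucocorticoid response, was at 52.2, 50, 47.1 and 55.2 TPM in the high-side libraries and 27.3, 31.8, 33.9 and 29.9 TPM in the low-side libraries. Sgk1, a kinase induced by steroids, was at 298, 278, 289 and 249.6 TPM in the high-side libraries and 134, 181, 131 and 163 TPM in the low-side libraries. The other higher members were Tsc22d3, Klf9, Cdkn1a, Ddit4, the glucocorticoid receptor gene Nr3c1, and Fkbp5 and Zbtb16. Fkbp5 and Zbtb16 are markers of the order, so this list is not independent of its choice either. PGR-A KO replicate 3 stood low in both Per1 and Sgk1 within its genotype, where the other 3 libraries were close together. Pdk4, a kinase that restrains pyruvate oxidation, was lower on the high side, at 12.1 to 18.1 TPM in the high-side and 20.1 to 25.3 TPM in the low-side libraries. Dusp1, Errfi1, Cdkn1c, Mt1 and Mt2 overlapped.

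Cholesterol synthesis and uptake had, after the markers themselves, the largest share of followers of the lists examined, 21 of 25 tested members higher and 0 lower, with a median correlation of 0.903. The followers included Hmgcs1, an early step, Mvk, Pmvk, Mvd, Idi1, Fdps, Fdft1 and Sqle, which lead to squalene epoxide, Lss, Cyp51 and Dhcr7 of the sterol steps, Scarb1, a receptor for high-density lipoprotein, and Srebf2, the main regulator. Lss, which closes the sterol ring, was at 43.3, 61.6, 46.8 and 60.7 TPM in the high-side libraries and 30.7, 30.4, 30.6 and 33 TPM in the low-side libraries. Msmo1, a later oxidase, was at 686, 671, 618 and 763 TPM in the high-side libraries and 393, 482, 399.6 and 466 TPM in the low-side libraries. For Lss the 4 low-side libraries were nearly level while PGR-A KO replicate 2 and WT replicate 1 led the high side. Tm7sf2, Hsd17b7, Ebp and Sc5d overlapped, and all 25 members had a positive correlation with PC1.

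Genes of progesterone synthesis were mixed along the order. Of 19 tested genes of steroid hormone synthesis 5 were higher and 1 lower, with a median correlation of 0.567. Higher were Star and Stard4, which carry cholesterol between membranes, Fdx1 and Fdxr, which pass electrons to the mitochondrial cytochromes, and Sult1e1. Fdxr was at 217, 232, 193 and 219.6 TPM in the high-side libraries and 136, 154, 152 and 161 TPM in the low-side libraries. Cyp11a1, the side-chain cleavage enzyme that begins steroid synthesis, was at 993, 949, 889 and 855 TPM in the high-side libraries and 373, 871, 524 and 521 TPM in the low-side libraries. Here WT replicate 2 lay within the high-side range and PGR-A KO replicate 3 far below all others, so the sides overlapped. Nr0b1, a repressor of steroidogenic genes, was lower on the high side, at 3.95, 3.73, 5.46 and 4.50 TPM in the high-side libraries and 8.46, 14.1, 11.3 and 8.28 TPM in the low-side libraries. Without WT replicate 2, 8 members were higher, and 4 were lower without PGR-A KO replicate 3 and 3 with quantile normalization.

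Luteinisation genes showed the same library between the sides. Of 18 tested members 7 were higher and 1 lower, with a median correlation of 0.896, and 14 were higher without WT replicate 2. The median level of the list, as log2(TPM + 1) minus each gene's mean, was 0.11 to 0.37 in the high-side libraries, 0.10 in WT replicate 2 and -0.62 to -0.27 in the other 3. Abhd2, a lipid hydrolase, was at 322, 281, 281 and 298 TPM in the high-side libraries and 149.5, 176, 159 and 142 TPM in the low-side libraries. Sfrp4, a WNT modulator of the luteinising follicle, was at 1716, 1409, 1327 and 1315 TPM in the high-side libraries and 622, 929, 709.6 and 727 TPM in the low-side libraries. The proprotein convertase gene Pcsk5 spanned 205 to 249 TPM in the high-side and 121 to 149.6 TPM in the low-side libraries. Apoe, the lipid carrier, was lower on the high side, at 101, 79.3, 92.4 and 110.1 TPM in the high-side libraries and 151, 149, 179 and 143 TPM in the low-side libraries. Lhcgr, Prlr, Cyp11a1 and Hsd3b1 overlapped.

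Genes of the growing preovulatory follicle mostly overlapped between the sides. Of 26 tested members 0 were higher and 4 lower (Esr2, Nppc, Gja1 and Nap1l5), or 15.4% beside the 10.5% over all genes, and the summed levels of the list overlapped. The median correlation was -0.559, and 22 members had a negative correlation. Esr2, the oestrogen receptor of granulosa cells, was at 48.3, 61.1, 52.6 and 49.7 TPM in the high-side libraries and 85.4, 98.5, 107 and 92.7 TPM in the low-side libraries. Nppc, the C-type natriuretic peptide that holds the oocyte in meiotic arrest, was at 9.62, 12.3, 8.06 and 8.83 TPM in the high-side libraries and 17.2, 82.5, 33.8 and 25.5 TPM in the low-side libraries. WT replicate 2 carried by far the most Nppc, and PGR-A KO replicate 3 the least of its side. Gja1, connexin 43 of the gap junctions, was at 997, 1302, 1019 and 881 TPM in the high-side libraries and 1507, 2209, 1866 and 1610.4 TPM in the low-side libraries. Without PGR-A KO replicate 2, 11 members were lower, without PGR-A KO replicate 3, 8, and without WT replicate 2, 7, with 3 higher. Fshr, Cyp19a1, Amh, Inha and Foxl2 overlapped.

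**Figure D3:**
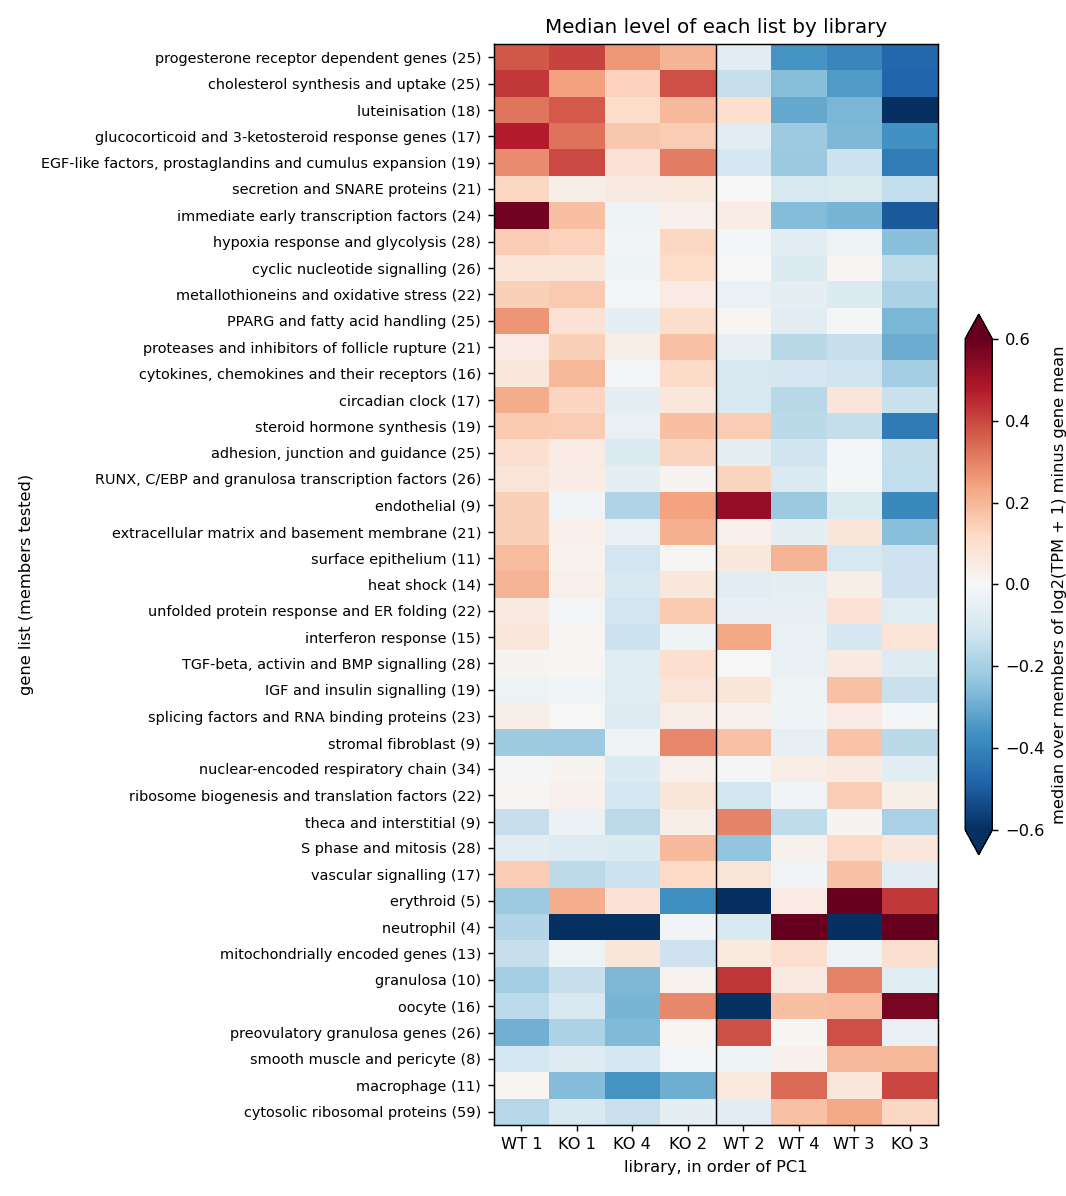
Median over tested members of log2(TPM + 1) minus the gene mean (colour) for each gene list with 3 or more tested members other than the 6 markers (rows, number of members tested in brackets, ordered by the median correlation with PC1) in each library (columns, in order of PC1, line between the sides). Progesterone receptor dependent genes range from 0.41 to -0.47 down the order, and WT replicate 2 stands close to the high side for luteinisation genes (0.10) and among the highest for preovulatory genes (0.38).

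Signalling by cyclic nucleotides had 10 of 26 tested members higher and 2 lower, with a median correlation of 0.652. Npr1 and Prkg2, given above, belong to the cGMP branch, and Prkaca, Prkar1a, Gnas, Adcy3 and Crem to the cAMP branch. Prkg2 is itself a marker of the order. Pde4d, a cAMP phosphodiesterase, was at 13.7, 13.3, 12.7 and 14.8 TPM in the high-side libraries and 6.21, 7.36, 8.36 and 8.03 TPM in the low-side libraries. Pde7b, another one, went the opposite way, at 10.6, 13.2, 12.1 and 10.9 TPM in the high-side libraries and 18.6, 26.2, 28.9 and 22.9 TPM in the low-side libraries. Without PGR-A KO replicate 2, and without replicate 3, 4 members were lower. In Pde4d and Pde7b the nearest libraries of the sides lay 1.52-fold and 1.41-fold apart. The SNARE and secretion list had 8 of 21 tested members higher and 0 lower. Snap25, a marker of the order, is itself a SNARE gene, so this group is not independent of the choice of the order. Syt11, a member of the synaptotagmin family, was at 21.5, 21.4, 20.1 and 21.1 TPM in the high-side libraries and 14.9, 15.4, 15.8 and 17.7 TPM in the low-side libraries. The count was 5 with TMM scaling or quantile normalization and 13 without WT replicate 2.

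Cytokines, chemokines and their receptors had 6 of 16 tested members higher and 1 lower, 3 lower without WT replicate 2. The higher ones were Il6, Lif, Socs3, Stat3, Il1r1 and Cxcr4, which is itself a marker of the order. Il1r1, the interleukin 1 receptor, was at 63.3, 53.5, 56.9 and 55.6 TPM in the high-side libraries and 34.1, 43.6, 32.3 and 32.8 TPM in the low-side libraries. Stat3, the transcription factor that acts below IL6 and LIF, was at 56.8, 57.1, 50.8 and 63.1 TPM in the high-side libraries and 37.3, 42, 42.1 and 40.8 TPM in the low-side libraries. WT replicate 1 had the highest Stat3 level. Cxcl1, lower on the high side at 3.10 to 5.17 TPM in the high-side and 5.42 to 6.63 TPM in the low-side libraries, overlapped after TMM scaling and quantile normalization. Of 6 members below the filter, Ccl20 was listed at 0 in every library.

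Of 26 tested members of a list of RUNX, C/EBP and granulosa transcription factors, 4 were higher and 4 lower, shares near those of all genes. Runx2 was at 222, 204, 202 and 267 TPM in the high-side libraries and 107, 154, 119 and 129 TPM in the low-side libraries. Cited4, a transcriptional coactivator partner, was at 149, 125, 114 and 121 TPM in the high-side libraries and 68, 74.9, 61 and 74.5 TPM in the low-side libraries. Runx1 and Tead1 were higher too, while Cebpa, Cebpb, Cebpd, Foxl2, Gata4 and Nr5a2 overlapped. Foxo1, a factor of the growing follicle that gonadotropin lowers, was at 63.2, 77.7, 67.7 and 64.6 TPM in the high-side libraries and 103, 129.8, 130.4 and 116 TPM in the low-side libraries. Sox4, Esr2 and Nr2f2 were the other lower members. Without PGR-A KO replicate 2, 7 members were lower.

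Immediate early transcription factors had 4 of 24 tested members higher and 1 lower, though 22 correlated positively with PC1 and the median correlation was 0.731. The count of higher members was 13 without WT replicate 2 and 7 with quantile normalization. Over all genes the higher count rose as well, from 1818 to 2564 and 2134 in these settings. The list's median level was 0.58 in WT replicate 1 and -0.50 in PGR-A KO replicate 3, with the other 6 libraries between -0.28 and 0.18. Egr3 was at 23.3, 20.7, 19.2 and 24.2 TPM in the high-side libraries and 7.61, 14.1, 9.28 and 8.49 TPM in the low-side libraries. Klf2 was at 61.8, 55.4, 52.4 and 80.2 TPM in the high-side libraries and 34.2, 41.3, 37.5 and 42.7 TPM in the low-side libraries. WT replicate 1 had the most of both genes. Nr4a2 was lower on the high side, at 0.753 to 1.07 TPM in the high-side and 1.13 to 1.55 TPM in the low-side libraries, and overlapped after quantile normalization.

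Metabolic and stress genes followed in part. Hypoxia response and glycolysis had 11 of 28 tested members higher and 1 lower, 7 higher with quantile normalization. They included Hif1a and its partner Arnt, the glucose carrier Slc2a1, and the glycolytic genes Hk1, Hk2, Gapdh, Pgam1, Pkm and Ldha. Hk2, a hexokinase, was at 36.9, 37.8, 32.3 and 34.8 TPM in the high-side libraries and 21.4, 23, 25.4 and 24.2 TPM in the low-side libraries. Vegfa, Adm, Pgk1 and Eno1 overlapped. Metallothioneins and oxidative stress had 6 of 22 higher and 0 lower (2 lower with quantile normalization), with Srxn1, a sulfiredoxin, at 36.5, 33.6, 33 and 31.8 TPM in the high-side libraries and 17, 21.9, 19.9 and 21.2 TPM in the low-side libraries. Mt1 and Mt2 overlapped, while Mt3 spanned 41.7 to 48.6 TPM in the high-side and 29.7 to 36.4 TPM in the low-side libraries.

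**Figure D4:**
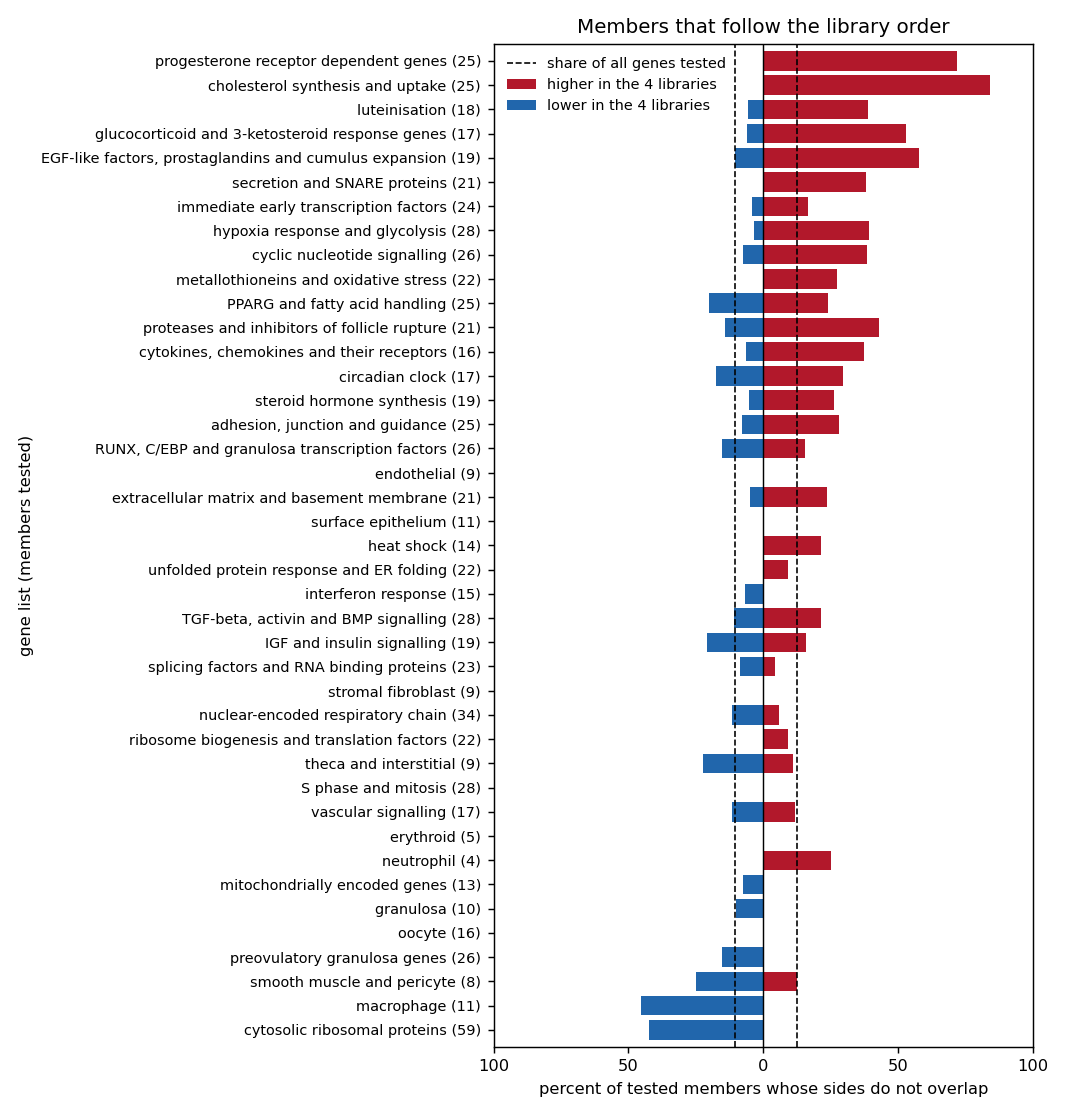
Percent of tested members of each list with 3 or more tested members other than the 6 markers (rows, number tested in brackets) whose sides do not overlap, to the right higher and to the left lower in the 4 high-side libraries, with dashed lines at the shares of all genes (12.6% and 10.5%). Cholesterol synthesis and uptake (84.0%) and progesterone receptor dependent genes (72.0%) reach farthest right, and macrophage markers (45.5%) and cytosolic ribosomal proteins (42.4%) farthest left.

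Cytosolic ribosomal protein genes lay on the opposite side. Of 59 tested members 0 were higher and 25 lower, 58 had a negative correlation with PC1 and the median correlation was -0.868. Rpl30 was at 921, 897, 869 and 898 TPM in the high-side libraries and 1099, 1116, 1234 and 1207 TPM in the low-side libraries. Rps21 was at 1199.6, 1191, 1093 and 1118 TPM in the high-side libraries and 1402, 1317, 1613 and 1531 TPM in the low-side libraries. Summed over the list, these genes took 59200 to 63600 TPM in the high-side libraries, 63200 TPM in WT replicate 2 and 72710 to 77400 TPM in the other 3. WT replicate 2 thus stood with the high side, and without it 54 members were lower. Ribosomal protein genes have many processed pseudogenes, and how reads were divided among them is not given in the sources used here, so single values are uncertain.

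Of 28 tested members of S phase and mitosis 0 were higher and 0 lower, with 2 higher after TMM scaling and 2 lower without PGR-A KO replicate 2, and the median correlation was -0.259. Mcm6, the member with the strongest correlation, was at 53.2, 68.1, 55.1 and 54.1 TPM in the high-side libraries and 73.3, 52.1, 80.6 and 63.6 TPM in the low-side libraries. WT replicate 3 was the highest and WT replicate 2 the lowest, both low-side libraries. Mitochondrially encoded genes had 0 of 13 higher and 1 lower (mt-Co1, which overlapped under both scalings), 3 lower without WT replicate 3. They made up 20.9% to 26.5% of TPM in the high-side and 20.9% to 26.4% in the low-side libraries.

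Markers of other cells that could be in the samples were examined beside these groups. Macrophage markers were lower on the high side: 0 of 11 were higher and 5 lower (Cd68, C1qa, C1qb, C1qc and Tyrobp), and all 11 correlated negatively with PC1. Summed, they were 64.9 to 98.8 TPM in the high-side libraries and 108 to 141 TPM in the low-side ones. Tyrobp, a signalling adaptor of myeloid cells, was at 6.01, 4.50, 4.95 and 7.03 TPM in the high-side libraries and 11.8, 8.40, 10.2 and 12.9 TPM in the low-side libraries. Lyz2, the most abundant, was at 35.6, 35.1, 30.7 and 50.6 TPM in the high-side libraries and 70.3, 56.7, 50.5 and 73.2 TPM in the low-side libraries, with the sides touching at WT replicates 1 and 3. Without WT replicate 3 there were 8 lower members. The part of macrophage RNA in the order was not tested.

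Oocyte markers had 0 of 16 higher and 0 lower (2 lower without WT replicate 2) and summed to 1060 to 1540 TPM on the high side and 786 to 1920 TPM on the low side. All 16 correlated negatively with PC1, with a median correlation of -0.501, and their part in the order was not tested. Gdf9, an oocyte growth factor, was at 195, 264, 184 and 191 TPM in the high-side libraries and 316, 132, 249 and 246 TPM in the low-side libraries. WT replicate 2 had the least and PGR-A KO replicate 3 the most, although both are low-side libraries. Erythroid markers had 0 of 5 higher and 0 lower, with sums of 3660 to 5500 TPM against 1730 to 11400 TPM, and all 5 correlated negatively with PC1. Endothelial markers had 0 of 9 in either direction, 2 higher without WT replicate 2 (35.1 to 51.8 TPM against 27.4 to 67.0 TPM), stromal fibroblast markers 0 of 9 (113 to 162 TPM against 112 to 139 TPM) and surface epithelium markers 0 of 11 (107 to 139 TPM against 100 to 139 TPM).

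Smooth muscle and pericyte markers had 1 of 8 higher and 2 lower (Tagln and Acta2), or 4 lower without PGR-A KO replicate 1. Their sums did not overlap, at 69.2 to 73.3 TPM on the high side and 78.4 to 112 TPM on the low side, 7 of the 8 correlated negatively with PC1, and their part in the order was not tested. Theca and interstitial markers had 1 of 9 higher (Hhip) and 2 lower (Ephx1 and Aldh1a1), and Hhip and Aldh1a1 overlapped after TMM scaling, while 4 were lower without PGR-A KO replicate 3. Neutrophil markers had 1 of 4 higher (Camp, at 7.54 to 11.5 TPM in the high-side and 3.28 to 7.28 TPM in the low-side libraries) and T and NK cell markers 1 of 2 (Trac, at 3.82 to 5.67 TPM in the high-side and 2.11 to 3 TPM in the low-side libraries), at sums of at most 35.0 and 10.5 TPM. The other 3 neutrophil markers correlated negatively with PC1, and the list's median correlation was -0.346. Neutrophil sums were highest in WT replicate 4 and PGR-A KO replicate 3 (35.0 and 34.7 TPM) and lowest in WT replicate 3 (8.87 TPM), all low-side libraries. Granulosa markers had 0 of 10 higher and 1 lower, and up to 4 lower with a library left out (PGR-A KO replicate 2). There were 2 higher and 3 lower without WT replicate 2, and 1 higher and 1 lower without WT replicate 1.

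Components of each genotype alone describe the same values that set the sides and are no separate support for the order. The first component of the 4 PGR-A KO libraries alone (57.1% of their variance) put replicates 1, 2 and 4 at 16.8, 8.07 and 10.4 and replicate 3 at -35.3. The WT libraries, centred on their own mean and projected on it, fell at 18.1, 3.41, -10.6 and -10.9 for replicates 1 to 4. The first component of the 4 WT libraries alone (44.1%) gave scores of 29.9, 4.14, -20.3 and -13.7. On it the PGR-A KO libraries projected to 10.4, 2.59, -21.3 and 8.29. WT replicate 2 lay just above the WT mean on both. Gene loadings of both components correlated across the 14472 genes at r = 0.61, a description, since genes are not replicates.

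PGR-A KO replicate 3 and WT replicate 1 are the libraries that cross their genotype, a choice made on these values. Across genes, the deviation of the first from the PGR-A KO mean and of the second from the WT mean correlated at r = -0.547, with opposite signs in 78.3% of the 14472 genes. PGR-A KO replicate 3 was below and WT replicate 1 above its own mean in 5982 genes, and the reverse held in 5351. In 3841 genes PGR-A KO replicate 3 was the lowest of its genotype and WT replicate 1 the highest of its own, and in 2519 genes the extremes were reversed. Among the 3332 followers, WT replicate 1 lay within the range of PGR-A KO replicates 1, 2 and 4 in 1619 (48.6%, against 50% of all genes). PGR-A KO replicate 3 lay within the range of WT replicates 2, 3 and 4 in 1431 (42.9%, against 42.6% of all genes).

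**Figure D5:**
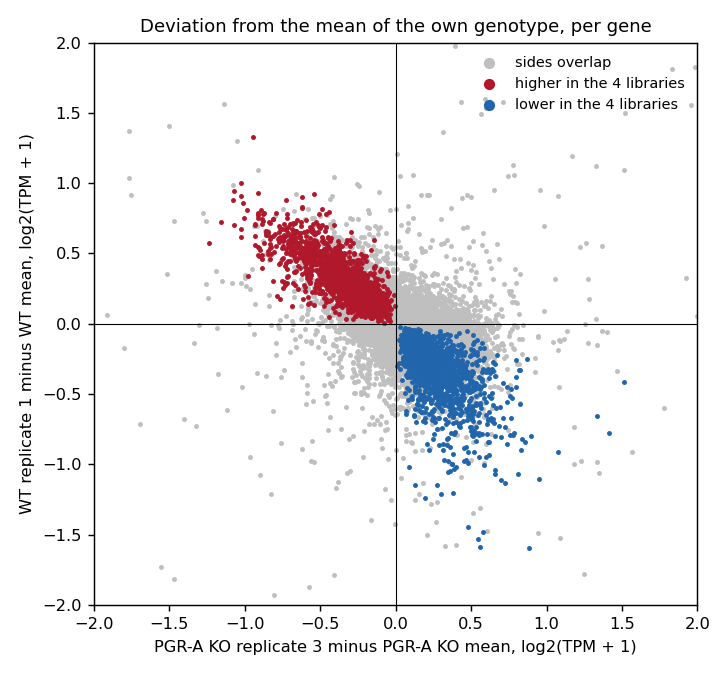
For each of 14472 genes, the deviation of PGR-A KO replicate 3 from the PGR-A KO mean (x axis) against that of WT replicate 1 from the WT mean (y axis), both in log2(TPM + 1), red for genes higher and blue for genes lower in the 4 high-side libraries and grey where the sides overlap; 19 genes lie outside the axes. The cloud slopes from upper left to lower right (r = -0.547), with the red genes upper left and the blue genes lower right, positions that the choice of the sides fixes.

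Which library sat closest to the other side varied with direction. Among the 1818 higher followers, WT replicate 2 was the highest of the low side in 782 (43.0%) and PGR-A KO replicate 4 the lowest of the high side in 1069 (58.8%). Among the 1514 lower followers, PGR-A KO replicate 3 was the lowest of the low side in 557 (36.8%) and PGR-A KO replicate 2 the highest of the high side in 786 (51.9%). PGR-A KO replicate 1, by contrast, bordered the other side in 136 higher (7.48%) and 177 lower (11.7%) followers.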

How the data were processed

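Polyadenylated RNA of 8 pools of mouse granulosa cells was sequenced from stranded mRNA libraries, per the labels' protocols. The authors deposited 1 table of TPM, transcript shares scaled to a fixed total, with 51886 gene symbols. Per the submitters' processing notes, FastQC, Salmon, limma, edgeR and the build mm10 were used. The annotation, the role of each tool and the summing of transcripts to genes: not given in the sources used here. TPM summed to 994519 to 997022 per library and keeps no depth, so precision rests on the 4 libraries per genotype, and an exact 0 can be a failed estimate. All 8 value columns were matched to samples by library name.

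From this table, log2(TPM + 1) was computed for genes with 1 TPM or more in 4 or more libraries. PCA used gene-centred, unscaled values (Python 3.11.15, numpy 2.4.6). Genotype was tested on PC1 with an exact permutation test and across genes with limma 3.58.1 (R 4.3.3, intensity trend, no covariate, Benjamini-Hochberg over all genes). Both steps were tested on simulated data with independent noise for each gene and shifts added to randomly chosen genes. The outcome is not reported here, and no support is drawn from it. Fold changes on the log2(TPM + 1) scale understate those of low genes. Positions come from GENCODE M21 (mm10), which held 95.2% of the symbols, and promoters from RefSeq.

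Named genes are the 6 markers, the 12 widest gaps in each direction among genes at 5 TPM or more in 4 or more libraries (predicted loci left out), up to 3 per list and direction by gap or, with no follower, the strongest correlation with PC1, the most abundant marker of each cell type, Pgr and genes called between genotypes. Some genes that this rule names are not reported here. The members, the split and the lists were chosen with earlier results of these data known. Alternatives were other pseudocounts, filters, scalings and limma settings, a replicate block, and each library left out.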

Additional observations from a re-analysis of the deposited data

Results flagged for a closer look

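Within a genotype, 49 of 324 groups of 4 values (each genotype, for the 160 named genes, the PC1 score and the mitochondrial share of TPM) had a highest or lowest library whose gap to the nearest other, divided by the range of the group, was above Dixon's critical value for 4 values. Chance gives about 16.2 such groups, and most named genes were chosen for a wide gap along the order that PGR-A KO replicate 3 and WT replicate 1 cross. All 49 are gene levels of these 2 libraries. The lowest PGR-A KO value, in TPM, was that of replicate 3 for Zbtb16 at 15.4, Fkbp5 at 280, Lepr at 31.2, Bves at 18.4, Gnao1 at 19.5, Rragd at 24.6, Mmp19 at 12 and Per1 at 27.3. Replicate 3 was likewise lowest for Sgk1 at 134, Stard4 at 17.4, Pde4d at 6.21, Sema3a at 3.83, Bhlhe40 at 40.3, Srxn1 at 17 and Mt3 at 29.7. It was also lowest for Runx2 at 107, Cyp11a1 at 373 and Msln at 6.37. In contrast, replicate 3 was the highest PGR-A KO library for Rarres2 at 70.4, Mmp11 at 263, Angpt2 at 13.9, Fabp3 at 25.6, Ndufb3 at 67.5 and Krt8 at 30.5.

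In WT, replicate 1 held the highest value, in TPM, for Cxcr4 at 539, Fkbp5 at 407, Lepr at 66, Ptx3 at 110, Sfrp2 at 14.6, Bves at 33.3, Fbxl22 at 28.2 and Btc at 44.2. High values of replicate 1 were also seen for Fdxr at 220, Lss at 60.7, Pcsk5 at 249, Klf2 at 80.2, Hk1 at 23, Vegfc at 2.34 and Stat3 at 63.1. A further set of high values covered Vamp3 at 84.9, Itga5 at 105, Atf4 at 271, Bhlhe40 at 72.8, Hmox1 at 44.9 and Tgfb1 at 46.7. WT replicate 1 was the lowest of its genotype for Bmp2 at 10.9, Omd at 19.2, Ypel1 at 3.36 and Foxo1 at 64.6.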

How the results depend on the processing

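Every high-side library present scored above every low-side library present on PC1 under every alternative run. Whether each stayed on its side of 0 was not checked. The exact permutation p for genotype was 0.457 to 0.543 under the other settings. With a library left out it was 0.0857 (without PGR-A KO replicate 3) to 0.857. A gap of 0.5 or more leaves 73 higher and 31 lower followers. With a library left out there were 1882 to 2717 higher and 1584 to 2435 lower followers, the latter count without WT replicate 2. Leaving a library out cannot make separate sides overlap. Apart from changes in the filter these counts can therefore only rise, and they do not measure stability. Higher genes were 54.6% of followers, 60.1% with TMM factors, 57.7% with quantile normalization and 50.2% with no filter, and the majority turned without PGR-A KO replicate 2 (46.2%, 1938 higher against 2261 lower) and without PGR-A KO replicate 3 (49.6%, 1919 against 1949). The genotype contrast called 2 genes. Changing the pseudocount gave 3 calls (at 0.1) or 1 (at 5), and leaving a library out gave 0 to 6. In the main setting limma gave 913 genes an unadjusted p under 0.05. This count rose to 1534 without PGR-A KO replicate 3 (6 called) and to 1832 without WT replicate 1 (4 called), the libraries that cross their genotype. It fell to between 505 and 785 with any other library left out, and was 658 without WT replicate 2 (0 called). Whether replicate numbers pair the libraries is not known. Same-numbered deviations correlated at 0.361, -0.109, 0.393 and -0.290 across genes and other-numbered ones at -0.547 to 0.429, which cannot decide it. With the replicate block the PC1 difference had p = 0.5 (exact sign-flip permutation, smallest possible p 0.125) and limma called 2 genes, with 1368 instead of 913 at an unadjusted p under 0.05. List counts, an alternative added after seeing the data, turned in direction in 5 cases: respiratory chain members with TMM factors (2 lower, 4 higher), ribosome biogenesis members without PGR-A KO replicate 2 (2 higher, 5 lower) and without WT replicate 2 (2 higher, 4 lower), splicing members without PGR-A KO replicate 4 (2 lower, 5 higher), and neutrophil markers without WT replicate 3 (1 higher, 2 lower). The cause was not tested. Of 142 named genes that follow the order, 21 overlapped under TMM factors or quantile normalization. Depth is unknown, so low genes carry an error that cannot be given.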

Other observations

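Some lists had followers in both directions, as did all genes tested (12.6% higher, 10.5% lower and 23.0% in either direction). Members following either way were 44% for fatty acid handling, 36.8% for IGF and insulin and 32.1% for TGF-beta, activin and BMP signalling. Fatty acid handling and PPARG had 6 of 25 tested members higher and 5 lower. Angptl4, an inhibitor of lipoprotein lipase, spanned 133 to 159 TPM in the high-side and 82.5 to 114 TPM in the low-side libraries, and Fabp3, a fatty acid binding protein, spanned 14 to 15.2 TPM in the high-side and 21.1 to 30.01 TPM in the low-side libraries. IGF and insulin signalling had 3 of 19 higher and 4 lower. Pappa, a protease that frees IGFs from their binding proteins, was at 7.16, 7.44, 6.26 and 8.21 TPM in the high-side libraries and 2.67, 4.73, 4.91 and 4.18 TPM in the low-side libraries, while Irs1, a docking protein of the insulin receptor, was at 6.82, 6.59, 7.42 and 6.62 TPM in the high-side libraries and 9.06, 21.2, 11.3 and 9.43 TPM in the low-side libraries. The high-side libraries lay above in Pappa and below in Irs1, and WT replicate 2 had the most Irs1. TGF-beta, activin and BMP signalling had 6 of 28 higher and 3 lower, 5 lower without PGR-A KO replicate 3 or without WT replicate 2. The type 1 receptor Acvr1 spanned 26.8 to 30.4 TPM in the high-side and 18.1 to 24.4 TPM in the low-side libraries, and the BMP receptors Bmpr1b and Bmpr2 spanned 48.6 to 65.6 TPM in the high-side and 83 to 109.8 TPM in the low-side libraries and 57.1 to 69.5 TPM in the high-side and 77 to 138 TPM in the low-side libraries. Id2 was higher on the high side and Id3 lower.

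Circadian clock genes had 5 of 17 tested members higher and 3 lower, with 8 higher without WT replicate 3 and 5 lower without WT replicate 1. Bhlhe40, a repressor of the clock loop, was at 82.7, 78.6, 76 and 72.8 TPM in the high-side libraries and 40.3, 49.2, 48.2 and 46 TPM in the low-side libraries. Arntl, the gene of BMAL1, spanned 18.2 to 19.9 TPM in the high-side and 14.3 to 15.7 TPM in the low-side libraries, and Nr1d2, a nuclear receptor that represses it, spanned 10.4 to 12.2 TPM in the high-side and 16.1 to 25.4 TPM in the low-side libraries. Adhesion, junction and guidance genes had 7 of 25 higher and 2 lower, among them Itga5, the fibronectin receptor subunit, at 71.9 to 105 TPM in the high-side and 46.1 to 57.3 TPM in the low-side libraries. Extracellular matrix and basement membrane had 5 of 21 higher and 1 lower (8 higher without WT replicate 2, 3 with quantile normalization), with Col18a1 at 40.7 to 60.2 TPM in the high-side and 24.9 to 28.4 TPM in the low-side libraries. Vascular signalling had 2 of 17 higher and 2 lower, shares near those of all genes, with 4 higher and 4 lower without WT replicate 2, 4 higher without PGR-A KO replicate 4 and 4 lower without WT replicate 4. Angpt2, an antagonist of the TIE2 receptor, was at 5.85 to 8.56 TPM in the high-side and 12.3 to 19 TPM in the low-side libraries, and Vegfc at 2.02 to 2.46 TPM in the high-side and 1.44 to 1.60 TPM in the low-side libraries.

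Heat shock had 3 of 14 higher and 0 lower, 5 higher without PGR-A KO replicate 4. The unfolded protein response and ER folding had 2 of 22 higher and 0 lower, 4 higher without PGR-A KO replicate 4 and 2 lower without PGR-A KO replicate 2. The interferon response had 0 of 15 higher and 1 lower, 4 lower without WT replicate 1 and 3 without WT replicate 4. The nuclear-encoded respiratory chain had 2 of 34 higher and 4 lower, 9 lower without PGR-A KO replicate 3 and 14 with quantile normalization, and 4 higher without PGR-A KO replicate 4 or without WT replicate 3. Ribosome biogenesis and translation factors had 2 of 22 higher and 0 lower, 5 higher without PGR-A KO replicate 4, 4 higher without WT replicate 3 and 5 lower without PGR-A KO replicate 2. Splicing factors had 1 of 23 higher and 2 lower, 5 lower without WT replicate 1, 4 lower without PGR-A KO replicate 3 and 5 higher without PGR-A KO replicate 4.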
